A study of Mus musculus with 19 samples.

Results

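The insulin-like growth factor (IGF) genes examined here were 10 of the 47069 genes listed in 6 RNA-seq count tables of embryonic mouse retinal ganglion cells (RGCs), the neurons whose axons leave the eye. They were taken by name: the ligand Igf1, the receptors Igf1r and Igf2r, the binding proteins Igfbp2, Igfbp3, Igfbp4 and Igfbp5, the related Igfbpl1, and the receptor substrates Irs1 and Irs2. Each of the 10 passed the filter on low counts, which kept 15941 genes for testing. The populations compared were ipsilateral RGCs (iRGCs), whose axons stay on their own side of the brain, and contralateral RGCs (cRGCs), whose axons cross the midline. Each population had 3 libraries from E16.5 retinas of pooled male and female embryos, with the background given as C57/DBA F1. The study names these hybrids for its electroporation experiments and states no background for the sequenced embryos.

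All embryos carried the allele CAG-[Stop]-Sun1-GFP at Rosa26, so that cells with a history of Cre expression made Sun1, a protein of the nuclear membrane, fused to GFP. The iRGC libraries came from GFP-positive cells sorted from embryos with Slc6a4-Cre, which is driven by the serotonin transporter gene. The cRGC libraries came from GFP-positive cells sorted from embryos with Pou4f2-Cre, a driver targeted into the Brn3b locus and active in most RGCs, after the ventrotemporal retina, where iRGCs lie, had been cut away. The genotype label of all 6 libraries is WT, although all carry a Cre driver and the reporter. There was no population without Cre. According to the study, iRGCs are born later, and at E16.5 they are on average younger than cRGCs. Driver, retinal region, cell age and projection cannot be told apart in this design. Between 28193178 and 33638083 reads were counted on genes per library.

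The libraries were checked against their labels before the IGF genes were read. Slc6a4, the gene behind the iRGC driver, stood at 2.06, 33.4 and 116 CPM (counts per 1000000, with library sizes scaled by TMM) in iRGC replicates 1, 2 and 3, and at 48.1, 35.4 and 30.5 CPM in the cRGC libraries. The library labelled iRGC replicate 1 was thus the lowest of the 6 for its own driver gene, and the populations did not separate on it (log2 fold change 0.41, SE 0.929, adjusted p = 0.768 in edgeR). Zic2, the transcription factor known for the ipsilateral route, was 2.53-fold higher in iRGCs with no overlap between libraries, and Pou4f2 was 2.22-fold higher in cRGCs.

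The populations also differed in markers of other cells. Of 14 RGC markers 13 were higher in cRGCs, and their summed level was 3176, 4505 and 6570 CPM in iRGCs against 16765, 15275 and 18916 CPM in cRGCs, with Tubb3 the most abundant. Of 16 retinal progenitor markers 14 were higher in iRGCs, with sums of 8831, 7994 and 7431 CPM against 1970, 2900 and 2617 CPM and Ccnd1 the most abundant. All 8 neurogenic precursor markers, 5 of the 6 tested photoreceptor precursor markers, 6 of 7 amacrine markers and all 8 tested endothelial markers were higher in iRGCs as well. The photoreceptor precursor markers summed to 1084, 856 and 878 CPM in iRGCs against 224, 332 and 271 CPM in cRGCs, and the amacrine markers to 299, 252 and 356 CPM against 126, 154 and 101 CPM. The part of these other cells in the IGF results below was not tested, except where a value is given. In bulk RNA, fewer cells of a type and less RNA per cell cannot be told apart.

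The IGF system links growth signals outside the cell to metabolism, survival and growth inside it. IGF1 and IGF2 bind the tyrosine kinase receptor encoded by Igf1r, which acts through the adaptor proteins IRS1 and IRS2 on the PI3K and Akt cascade and on the Ras and MAP kinase cascade. The product of Igf2r, which also carries mannose 6-phosphate-tagged enzymes to lysosomes, takes up IGF2 and delivers it for breakdown. The secreted IGF-binding proteins hold IGFs, protect them, or keep them from the receptor, and proteases release the ligand again. In the nervous system IGF1 is known as a survival and axon growth factor, and Igfbpl1 is known from immature neurons and RGC axon growth.

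Upstream sequence is shown for 4 of the 10 genes, chosen for their motifs. Igf2r, Irs1 and Irs2 share an uncommon motif, and among the genes matched below only Igfbp4 holds the exact letters TATAAA. RefSeq promoter windows were matched by symbol for 9 genes. Igfbpl1 had no entry. Each window holds the 250 bases before a RefSeq start, read 5′ to 3′ on the gene's strand in GRCm38.p6. Capitals mark GTCACGTG (a flanked E-box), TATAAA (the core of a TATA box) and GGGCGG (a GC box), and matches on either strand were counted. The motifs were chosen after the sequences had been read.

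Igf2r, minus strand, chr17:12769707-12769956: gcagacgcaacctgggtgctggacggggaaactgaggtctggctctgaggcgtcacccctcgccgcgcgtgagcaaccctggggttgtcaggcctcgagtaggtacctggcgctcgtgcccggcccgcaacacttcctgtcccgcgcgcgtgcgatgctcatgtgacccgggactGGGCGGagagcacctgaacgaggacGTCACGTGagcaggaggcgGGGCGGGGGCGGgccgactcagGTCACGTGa
Irs1, minus strand, chr1:82291440-82291689: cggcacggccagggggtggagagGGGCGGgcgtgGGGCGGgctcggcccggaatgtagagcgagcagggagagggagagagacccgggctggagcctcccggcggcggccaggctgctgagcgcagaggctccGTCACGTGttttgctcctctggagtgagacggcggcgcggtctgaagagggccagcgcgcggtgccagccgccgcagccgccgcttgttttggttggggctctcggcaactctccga
Irs2, minus strand, chr8:11008930-11009179: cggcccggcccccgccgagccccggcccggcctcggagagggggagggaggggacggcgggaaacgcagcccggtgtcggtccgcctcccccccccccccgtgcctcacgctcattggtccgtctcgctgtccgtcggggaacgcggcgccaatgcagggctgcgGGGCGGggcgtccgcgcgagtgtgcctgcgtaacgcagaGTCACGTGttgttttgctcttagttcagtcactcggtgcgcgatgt
Igfbp4, plus strand, chr11:99040994-99041243: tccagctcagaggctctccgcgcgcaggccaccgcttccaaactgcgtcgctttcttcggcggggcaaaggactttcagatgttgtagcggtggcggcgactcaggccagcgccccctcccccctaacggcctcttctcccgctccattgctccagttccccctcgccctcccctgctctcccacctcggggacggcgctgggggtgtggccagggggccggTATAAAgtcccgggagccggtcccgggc

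GTCACGTG was found in 1.85% of the 32851 windows of all genes. It occurred at 2 places in the Igf2r window, starting 50 and 9 bases before the start, and at 1 place each for Irs1 (117 bases before) and Irs2 (46 bases before). TATAAA, in 12.4% of windows, was found only for Igfbp4 among the 9 matched genes, 28 bases before its start. Variants of these letters, such as the TATATAT in the Igfbp3 window, were not searched. GGGCGG, in 32.7% of windows, was found for Igf2r, Igfbp2, Irs1, Igf1r and Irs2. TAATTA (4.84% of windows) and GTAAACA (3.17%) were in none of the 9 genes' windows, and CCAAT (33.8%) was in those of Irs2 and Igf1. The windows held 42 CpG dinucleotides for Igf1r, 34 for Irs2, 32 for Igfbp3, 28 for Irs1, 27 for Igf2r, 22 for Igfbp4, 14 and 11 for the 2 windows of Igfbp2, 10 for Igfbp5 and 5 for Igf1, against a median of 6 over all windows. A match is a description of letters only, and the Igf1 window lies within exons of other Igf1 transcripts.

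Of the 10 genes, 2 were higher in cRGCs (Igf1 and Igfbpl1), 3 were higher in iRGCs (Igf2r, Igfbp4 and Irs2), and 5 did not pass the threshold of an adjusted p under 0.1 in edgeR's quasi-likelihood test. Among all 15941 genes tested, 23.3% were higher in iRGCs and 23.1% higher in cRGCs by the same rule, so the number of IGF genes called was close to the background. With an absolute log2 fold change above 1 required as well, Igf1 and Igfbpl1 were left and no gene higher in iRGCs, where the background was 11.0% for cRGCs and 12.1% for iRGCs. The libraries of the populations did not overlap for 4 of the 10 genes (Igf1, Igfbpl1, Igf2r and Igfbp4), against 55.3% of all genes tested. The median log2 fold change of the 10 genes was 0.19, against a median of -0.00307 over all genes.

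**Figure D1:**
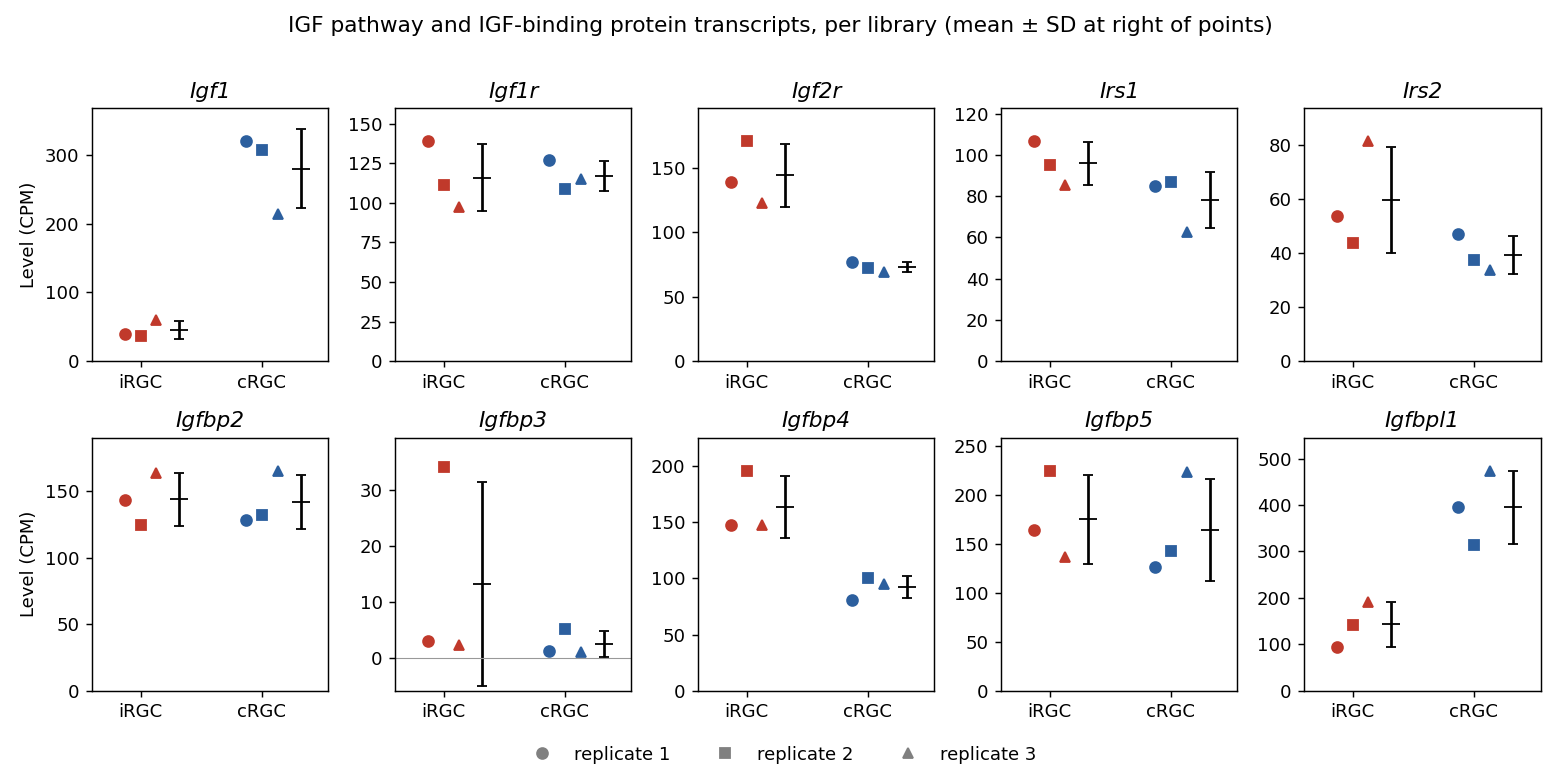
Level of each of the 10 genes in CPM (vertical axes, linear, 1 scale per gene) in the 3 iRGC and 3 cRGC libraries. Marker shape gives the replicate number and the black bars give mean ± SD, which for Igfbp3 in iRGCs reaches below 0. Igf1 and Igfbpl1 lie higher in all cRGC libraries, Igf2r and Igfbp4 lie higher in all iRGC libraries, and Igfbp3 is high in iRGC replicate 2 alone.

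Igf1, the ligand, had the largest difference among the 5 of the 10 genes that were called. Igf1 (ENSMUSG00000020053, chr10:87858265-87937042, plus strand, GRCm38) stood at 39.5, 36.5 and 60.3 CPM in the iRGC libraries and at 320, 307 and 214 CPM in the cRGC libraries. The lowest cRGC library was well above the highest iRGC library. The iRGC mean was 45.4 ± 12.9 CPM against 280 ± 57.9 CPM for cRGCs (SD, n = 3 each), a 6.17-fold higher level in cRGCs (log2 fold change -2.63, SE 0.229, adjusted p = 2.05e-04, edgeR). It ranked 90 among all genes by p-value. Over 14 alternatives in normalization, tool, filter and libraries the log2 fold change stayed between -2.89 and -2.49.

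Because RGC markers as a group were also higher in cRGCs, Igf1 was set against their geometric mean in each library, which was 153, 188 and 298 CPM in iRGCs and 826, 734 and 728 CPM in cRGCs. On that scale Igf1 was 0.257, 0.195 and 0.202 of the RGC marker level in iRGCs and 0.388, 0.418 and 0.294 in cRGCs. The ratio of the means fell to 1.68-fold higher in cRGCs. The libraries did not overlap, but that depended on Thy1, an RGC surface protein gene that was not called and stood at 46.5, 39.1 and 3.19 CPM in the cRGC libraries. Without Thy1 among the 14 markers, an alternative chosen after seeing the data, Igf1 was 0.201, 0.133 and 0.160 in iRGCs and 0.311, 0.334 and 0.194 in cRGCs, so cRGC replicate 3 fell just below iRGC replicate 1, and the ratio of the means was 1.70. The ratio is a description and was not tested.

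The other ligands were measured beside it. Igf2, a fetal growth factor that most tissues express from the paternal allele, stood at 61.2, 158 and 27.9 CPM in iRGCs and 5.38, 9.49 and 9.20 CPM in cRGCs. Thus Igf2 was higher in every iRGC library, where Igf1 was lower (log2 fold change 3.36, SE 0.576, adjusted p = 0.00181, edgeR). Without iRGC replicate 2, its highest library, the value was 2.47 with an adjusted p of 0.00295. Of Igf2's exon bases 64.5% are shared with the annotated genes Gm49394 and Igf2os, so its counts are uncertain. Ins1 and Ins2, the insulin genes, had no count in any of the 6 libraries, where 3 counts would correspond to between 0.0927 and 0.115 CPM.

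Igf1r, the signalling receptor, did not differ detectably. Igf1r (ENSMUSG00000005533, chr7:67952827-68233668, plus strand) stood at 139, 111 and 97.3 CPM in iRGCs and 127, 109 and 115 CPM in cRGCs. The libraries of the populations were interleaved (log2 fold change -0.017, SE 0.145, adjusted p = 0.943, edgeR). Its alternatives ran from -0.17 to 0.085.

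Igf2r, the scavenger receptor for IGF2, was higher in iRGCs. Igf2r (ENSMUSG00000023830, chr17:12682406-12769664, minus strand) stood at 139, 170 and 123 CPM in iRGCs and 76.8, 72.0 and 69.2 CPM in cRGCs. The cRGC libraries lay close together and the iRGC libraries all lay above them. The means were 144 ± 24.3 and 72.7 ± 3.83 CPM (SD, n = 3 each), a 1.98-fold difference (log2 fold change 0.99, SE 0.137, adjusted p = 6.64e-04, edgeR), with alternatives between 0.85 and 1.08. Igf2r is an imprinted gene, and Airn, the antisense RNA that silences its paternal copy in many tissues, was at 2.61, 2.38 and 0 CPM in iRGCs and 0, 0.0345 and 0.129 CPM in cRGCs and did not pass the filter on low counts.

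Insr, the insulin receptor, was the other member of the receptor list that changed. It stood at 153, 150 and 145 CPM in iRGCs and 197, 174 and 197 CPM in cRGCs (log2 fold change -0.34, SE 0.0996, adjusted p = 0.0238, edgeR), and was thus higher in cRGCs by 1.27-fold. Insrr, an orphan relative of the insulin receptor, was at most 3.86 CPM and had an adjusted p of 0.601. Per kilobase of exon, the ratio of Igf1r to Insr was 0.743, 0.605 and 0.550 in iRGCs and 0.530, 0.513 and 0.479 in cRGCs. The libraries did not overlap, but the two-sided exact permutation test with 3 against 3 cannot go below 0.1, which is the p it gave (0.3 after adjustment over 3 ratios).

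**Figure D2:**
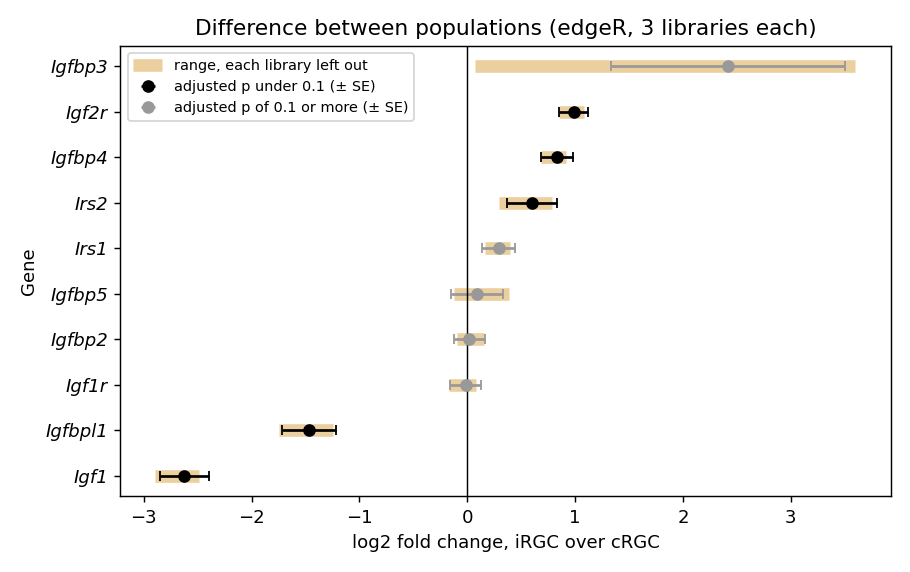
Difference between populations for the 10 genes (horizontal axis, log2 fold change of iRGC over cRGC; points with SE from edgeR, 3 libraries each). The wide bands span the values with each library left out in turn. The band is widest for Igfbp3, from 0.069 to 3.60, and crosses 0 for Igf1r, Igfbp2 and Igfbp5.

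Among the binding proteins, Igfbpl1 was higher in cRGCs, Igfbp4 was higher in iRGCs, and Igfbp2, Igfbp3 and Igfbp5 did not pass the threshold. Igfbpl1 (ENSMUSG00000035551, chr4:45809468-45826923, minus strand) stood at 94.3, 142 and 192 CPM in iRGCs and 396, 315 and 474 CPM in cRGCs. All cRGC libraries were above all iRGC libraries. The means were 143 ± 48.7 and 395 ± 79.4 CPM (SD, n = 3 each), a 2.76-fold higher level in cRGCs (log2 fold change -1.47, SE 0.249, adjusted p = 0.00173, edgeR), with alternatives between -1.75 and -1.24.

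Relative to the RGC marker level, which includes the cRGC-selective genes named above, Igfbpl1 was no longer higher in cRGCs. It was 0.615, 0.759 and 0.643 of that level in iRGCs and 0.479, 0.429 and 0.651 in cRGCs, so the libraries overlapped and the mean was slightly higher in iRGCs. Without Thy1 it was 0.480, 0.518 and 0.508 in iRGCs and 0.384, 0.342 and 0.429 in cRGCs, with all iRGC libraries above all cRGC libraries. In the same scaling the 8 genes other than Igf1 and Igfbpl1 were all higher in iRGCs without overlap, which includes the genes with equal CPM, since the RGC marker level itself was lower in all iRGC libraries.

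Igfbp4 (ENSMUSG00000017493, chr11:99041244-99054392, plus strand), which binds IGFs and is cut by the protease PAPPA, stood at 148, 196 and 148 CPM in iRGCs and 81.0, 100.2 and 94.8 CPM in cRGCs. The iRGC libraries were all higher, with replicate 2 the highest. The means were 164 ± 27.8 and 92.0 ± 9.89 CPM (SD, n = 3 each), a 1.78-fold difference (log2 fold change 0.83, SE 0.145, adjusted p = 0.00199, edgeR). Without iRGC replicate 2 the log2 fold change was 0.68 with an adjusted p of 0.00731.

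Igfbp2 and Igfbp5 are close neighbours on chromosome 1, on opposite strands with 5457 bases between them. Igfbp2 (ENSMUSG00000039323, chr1:72824503-72852474, plus strand) stood at 144, 124 and 164 CPM in iRGCs and 128, 132 and 165 CPM in cRGCs (log2 fold change 0.020, SE 0.143, adjusted p = 0.930, edgeR). Igfbp5 (ENSMUSG00000026185, chr1:72857932-72874884, minus strand) stood at 164, 224 and 136 CPM in iRGCs and 126, 142 and 223 CPM in cRGCs (log2 fold change 0.093, SE 0.241, adjusted p = 0.799, edgeR). Both genes overlapped between populations, and Igfbp5 varied more between libraries than Igfbp2 in each population. The ratio of Igfbp2 to Igfbp5 per kilobase differed by -0.086 on the log2 scale (exact permutation p = 0.8).

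Igfbp3 rested on a single library. Igfbp3 (ENSMUSG00000020427, chr11:7206086-7213923, minus strand), the main carrier of IGFs in blood, stood at 2.96, 34.2 and 2.18 CPM in iRGCs and 1.19, 5.14 and 1.00 CPM in cRGCs. The fitted difference of 2.42 on the log2 scale (SE 1.08) did not pass (adjusted p = 0.112, edgeR), and without iRGC replicate 2 it was 0.069 with an adjusted p of 0.962. It passed in 6 of 13 alternatives, each of which kept iRGC replicate 2. The DESeq2 test, the tool of the study, gave no adjusted p for Igfbp3.

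The library with high Igfbp3 was also the highest for 10 of 12 endothelial and 6 of 10 mural markers. The exceptions were Kdr, Cldn5, Acta2, Tagln, Myl9 and Anpep. Cdh5, the cadherin of endothelial junctions, stood at 15.2, 81.3 and 0.158 CPM in iRGCs and at 0 in all cRGC libraries, and the pericyte gene Rgs5 at 3.76, 93.8 and 2.24 CPM in iRGCs and at most 0.323 CPM in cRGCs. Summed over the 12 endothelial markers the levels were 481, 774 and 437 CPM in iRGCs and 89.2, 109 and 72.0 CPM in cRGCs, with Kdr the most abundant. Kdr itself was lowest of the iRGC libraries in replicate 2 (366, 320 and 418 CPM), and without it the sums were 115, 454 and 18.7 CPM in iRGCs and 5.50, 5.87 and 4.42 CPM in cRGCs. Over the 10 mural markers they were 142, 287 and 144 CPM against 21.7, 33.0 and 23.7 CPM, with Notch3 the most abundant (29.8, 170 and 60.7 CPM against 4.65, 6.32 and 5.03 CPM without it), and over the 7 erythroid markers 12.2, 92.7 and 15.2 CPM against 0, 5.11 and 0.290 CPM. Of the ciliary margin markers, 6 of 8 were also highest in iRGC replicate 2, with sums of 92.9, 221 and 69.4 CPM in iRGCs against 26.3, 42.9 and 47.2 CPM in cRGCs. Of these 8 markers 5 were higher in iRGCs, Mfap4 was the most abundant, and Gja1 stood at 23.3, 99.2 and 4.98 CPM in iRGCs. The part of vascular, blood or ciliary margin cells in the Igfbp3 value was not tested.

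**Figure D3:**
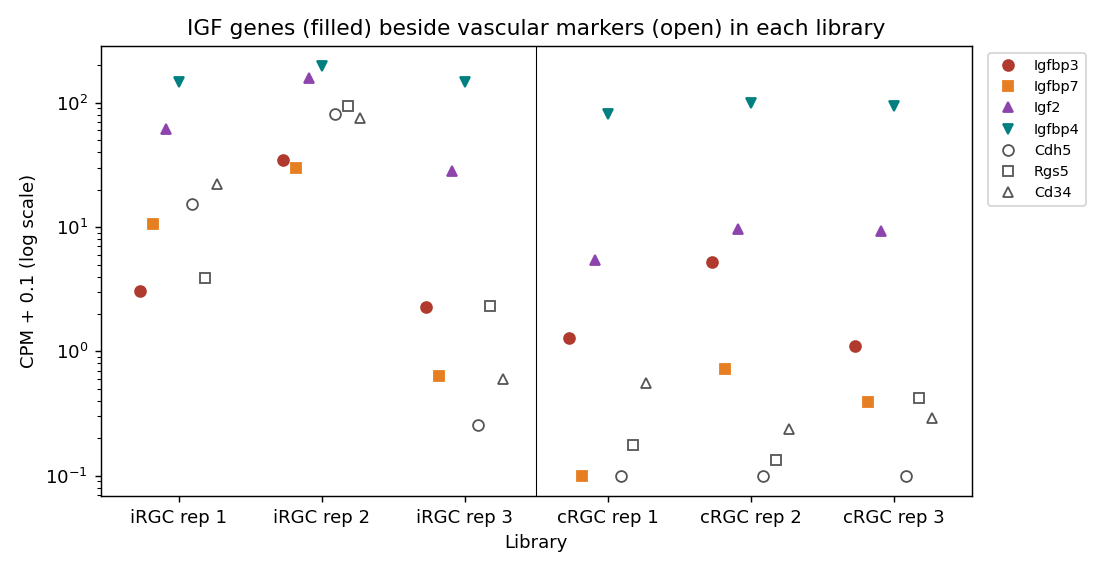
Levels of Igfbp3, Igfbp7, Igf2 and Igfbp4 (filled) and of the vascular markers Cdh5, Rgs5 and Cd34 (open) in each of the 6 libraries, as CPM + 0.1 on a log axis. All 7 genes are at their highest in iRGC replicate 2; Igfbp4 is spread over less than the others. Kdr, which is not drawn, was lower there than in the other iRGC libraries.

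The remaining binding protein genes of the list were low. Igfbp7, known from vessels, stood at 10.4, 29.8 and 0.536 CPM in iRGCs and 0, 0.621 and 0.290 CPM in cRGCs, so iRGC replicate 3 lay within the cRGC range. It passed the test (log2 fold change 5.44, SE 1.39, adjusted p = 0.0133, edgeR) but not with limma voom (adjusted p = 0.388), and without iRGC replicate 2 it had a log2 fold change of 4.13 and an adjusted p of 0.0719. Igfbp1, Igfbp6 and Igfals, which encodes the partner of IGFBP3 in blood, stood at or below 0.868 CPM in every library and were not tested.

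Compared per kilobase of exon, which allows genes of different length to be set side by side, the order of the 10 genes differed between populations. In iRGCs Igfbp2 was highest at 77.9 ± 10.6 CPM per kb (SD, n = 3), followed by Igfbpl1 (43.9), Igfbp4 (37.1) and Igfbp5 (29.1), whose ranges overlapped from neighbour to neighbour. Igf2r followed at 15.5, then Irs1 (10.5), Irs2 (9.43), Igf1r (6.90), Igf1 (4.59) and Igfbp3 (4.19), again with neighbours overlapping. The iRGC libraries of Igfbp3 ran from 0.695 to 10.9 CPM per kb. In cRGCs Igfbpl1 was highest at 121 CPM per kb, above Igfbp2 at 76.9, and Igf1 came next at 28.3 with overlapping neighbours Igfbp5 (27.3) and Igfbp4 (20.8). Irs1 (8.56), Igf2r (7.81), Igf1r (6.98) and Irs2 (6.22) overlapped with their neighbours below these, and Igfbp3 was lowest at 0.781.

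**Figure D4:**
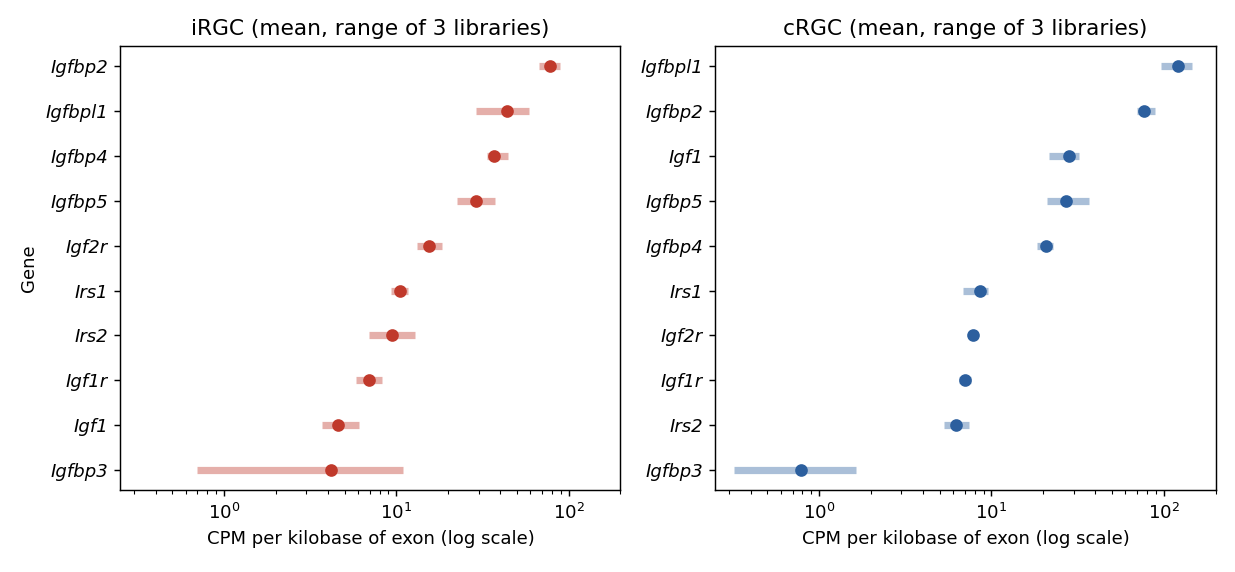
Levels of the 10 genes in each population in CPM per kilobase of exon (horizontal log axis), with the mean as a point and the range of 3 libraries as a bar. Igf1 is ninth of the 10 in iRGCs, at 4.59 CPM per kb, and the third in cRGCs, at 28.3 CPM per kb.

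The 5 binding protein genes among the 10 summed to 192 ± 20.5 CPM per kb in iRGCs and 247 ± 41.4 CPM per kb in cRGCs (SD, n = 3 each). Igfbpl1 made up 22.5% ± 5.89 of that sum in iRGCs and 49.0% ± 3.98 in cRGCs. Igfbp2 made up 40.9% and 31.2%, Igfbp4 19.3% and 8.57%, Igfbp5 15.2% and 10.9%, and Igfbp3 2.09% and 0.344%. The iRGC mean of Igfbp3 was carried by replicate 2, with shares of 0.561%, 5.37% and 0.340% in replicates 1, 2 and 3. The mixture was thus led by Igfbp2 in iRGCs and by Igfbpl1 in cRGCs, and since shares add up to a whole they are not independent of each other.

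Proteases that cut binding proteins, and their inhibitors, were low in both populations. Pappa, the protease for IGFBP4, stood at 1.22, 1.27 and 1.17 CPM in iRGCs and 7.30, 8.14 and 3.97 CPM in cRGCs, and was higher in cRGCs (log2 fold change -2.40, SE 0.459, adjusted p = 0.00312, edgeR). Stc2, an inhibitor of PAPPA, stood at 13.2, 11.3 and 11.2 CPM in iRGCs and 2.61, 3.80 and 3.07 CPM in cRGCs, and was higher in iRGCs (log2 fold change 1.91, SE 0.289, adjusted p = 9.69e-04, edgeR). Protease and inhibitor therefore differed in opposite directions, and Igfbp4 in that of the inhibitor.

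Htra1, a secreted serine protease, stood at 3.57, 7.26 and 3.00 CPM in iRGCs and 0.884, 1.07 and 1.48 CPM in cRGCs (log2 fold change 2.00, adjusted p = 0.0209, edgeR). Without iRGC replicate 2 its log2 fold change was 1.51 with an adjusted p of 0.129. Pappa2 (log2 fold change -1.12, adjusted p = 0.164) and Stc1 (1.46, adjusted p = 0.127) did not pass in edgeR. Without cRGC replicate 3, its highest library, Pappa2 was at -0.15 (adjusted p = 0.871, edgeR). Stc1 passed in 4 alternatives, among them the DESeq2 test and limma voom.

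Of the receptor substrates, Irs2 passed the threshold narrowly and Irs1 did not. Irs2 (ENSMUSG00000038894, chr8:10984681-11008458, minus strand) stood at 53.8, 43.6 and 81.4 CPM in iRGCs and 47.1, 37.4 and 33.6 CPM in cRGCs. The libraries overlapped, with iRGC replicate 2 below cRGC replicate 1. Irs2 was 0.60 higher in iRGCs on the log2 scale (SE 0.234, adjusted p = 0.0722, edgeR). The call was lost without iRGC replicate 3 (0.30, adjusted p = 0.250), without cRGC replicate 2 (0.58, adjusted p = 0.140) and without cRGC replicate 3 (0.50, adjusted p = 0.186). With the replicate number as a block the call was lost too (0.56, adjusted p = 0.122, edgeR).

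Irs1 (ENSMUSG00000055980, chr1:82233101-82291416, minus strand) stood at 107, 95.4 and 85.6 CPM in iRGCs and 85.1, 87.0 and 62.7 CPM in cRGCs (log2 fold change 0.29, SE 0.153, adjusted p = 0.166, edgeR). Of its exon bases 30.9% are shared with Gm9747 on the other strand, which held at most 2 counts in any library. The ratio of Irs1 to Irs2 per kilobase differed by -0.26 on the log2 scale between populations (exact permutation p = 0.8), with iRGC replicate 3 the lowest library at 0.727.

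The pathway around these genes was read from a list of 81 genes, of which 76 were tested and 66 of those were outside the 10. Of these 66 genes 19 were higher in iRGCs, 23 were higher in cRGCs and 24 did not pass, with a median log2 fold change of -0.076. That is 28.8% and 34.8%, against 23.3% and 23.1% of all genes tested, and differences between roles were not tested. Of 25 genes of the PI3K, Akt and mTOR cascade, 6 were higher in iRGCs (24%) and 11 in cRGCs (44%), and of 9 genes of the Ras and MAP kinase cascade 0 were higher in iRGCs and 3 were higher in cRGCs (33.3%) by edgeR. At an unadjusted p under 0.05, 0 of the 9 were higher in iRGCs, as with the DESeq2 test, whereas limma voom called 1, which 5 of the alternatives in all brought past the threshold.

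**Figure D5:**
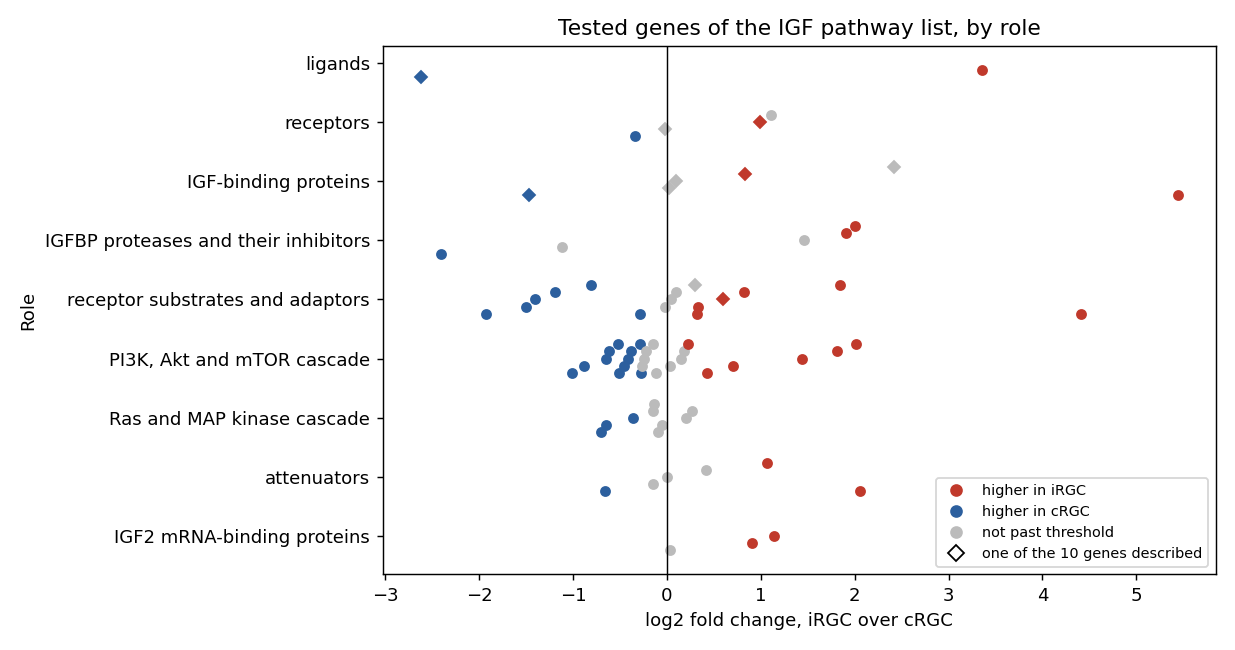
Log2 fold change of iRGC over cRGC (horizontal axis) of the 76 tested genes of the pathway list, grouped by role. Diamonds are the 10 genes described, and colour gives the direction of those with an adjusted p under 0.1; coloured points lie on both sides of 0 in every role but the Ras and MAP kinase cascade, where the 3 coloured points are on the cRGC side, and the IGF2 mRNA-binding proteins, where the 2 coloured points are on the iRGC side.

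Of the 14 receptor adaptors outside the 10 genes, 5 were higher in iRGCs (35.7%) and 6 in cRGCs (42.9%), where all genes tested gave 23.3% and 23.1%. Grb10, an imprinted adaptor that dampens insulin and IGF receptor signalling, stood at 1180, 1171 and 834 CPM in iRGCs and 193, 314 and 377 CPM in cRGCs (log2 fold change 1.85, SE 0.242, adjusted p = 5.14e-04, edgeR). Irs4, a low-abundance relative of Irs1, stood at 2.61, 6.18 and 3.00 CPM in iRGCs and 0, 0.311 and 0.226 CPM in cRGCs (log2 fold change 4.41, adjusted p = 0.00989, edgeR). Gab1, a docking protein for PI3K and the phosphatase SHP2, was also higher in iRGCs (0.82, adjusted p = 6.06e-04, edgeR).

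In the other direction, Shc2, a neuronal SHC adaptor that leads to Ras, averaged 74.9 ± 20.2 CPM in iRGCs against 286 ± 29.2 CPM in cRGCs (SD, n = 3 each) without overlap (log2 fold change -1.93, adjusted p = 2.38e-04, edgeR). Gab2 (-1.50, adjusted p = 4.00e-04) and Sh2b2 (-1.41, adjusted p = 8.89e-04) were higher in cRGCs too by edgeR. Related adaptors thus lay on opposite sides, as Gab1 and Gab2 did.

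In the PI3K, Akt and mTOR cascade the regulatory subunits of PI3K did not all differ in the same direction. Pik3r1, which encodes p85 alpha, stood at 352, 275 and 328 CPM in iRGCs and 113, 134 and 106 CPM in cRGCs (log2 fold change 1.44, SE 0.135, adjusted p = 2.07e-04, edgeR). Pik3r3, which encodes p55 gamma, stood at 186, 201 and 245 CPM in iRGCs and 407, 321 and 442 CPM in cRGCs (log2 fold change -0.89, SE 0.152, adjusted p = 0.00179, edgeR), and 24.3% of its exon bases are shared with Gm49337. No library of the populations overlapped for either gene. Pik3r2, the other regulatory subunit gene of the list, was higher in cRGCs, like Pik3r3 (-0.41, adjusted p = 0.0164, edgeR).

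Eif4ebp1, a translation repressor that mTOR inactivates, was higher in iRGCs (log2 fold change 2.01, adjusted p = 0.00215, edgeR), as was the forkhead factor gene Foxo4 (1.82, adjusted p = 0.00202). Akt1, a kinase downstream of PI3K, was higher in cRGCs (-0.65, adjusted p = 0.00136, edgeR). Foxo6 also passed on the cRGC side (-1.01, adjusted p = 0.0609), but not without iRGC replicate 1 (-0.77, adjusted p = 0.155), iRGC replicate 2 (-0.79, 0.175), cRGC replicate 1 (-0.93, 0.147) or cRGC replicate 2 (-1.03, 0.104). Without iRGC replicate 3, its highest iRGC library, the Foxo6 value was -1.63 (adjusted p = 0.00115, edgeR).

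In the Ras and MAP kinase cascade the genes higher in cRGCs included Hras (log2 fold change -0.70, adjusted p = 0.00431) and Mapk3, which encodes ERK1 (-0.65, adjusted p = 0.00121), both by edgeR. No gene of this cascade passed a 2-fold difference.

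Of 6 attenuators of the pathway, 2 were higher in iRGCs and 1 in cRGCs, close to the 23.3% and 23.1% of all genes tested. Socs3, a feedback inhibitor of cytokine and insulin signalling known for limiting axon regrowth in RGCs, stood at 69.9, 126 and 45.3 CPM in iRGCs and 14.6, 23.4 and 19.7 CPM in cRGCs (log2 fold change 2.06, SE 0.350, adjusted p = 0.00175, edgeR). Ide, which encodes insulin-degrading enzyme, was higher in iRGCs (1.06, adjusted p = 0.00134) and Ptpn1, a phosphatase of the insulin receptor, was higher in cRGCs (-0.66, adjusted p = 0.00123), both by edgeR. For Socs3 iRGC replicate 2 was again the highest library, and without it the log2 fold change was 1.58.

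The mRNA-binding proteins named for Igf2, which are known from growing and progenitor cells, were abundant. Igf2bp1 stood at 278, 238 and 140 CPM in iRGCs and 84.2, 87.3 and 126 CPM in cRGCs (log2 fold change 1.14, SE 0.253, adjusted p = 0.00670, edgeR). Igf2bp2 stood at 177, 196 and 159 CPM in iRGCs and 84.5, 88.9 and 110 CPM in cRGCs (log2 fold change 0.91, SE 0.136, adjusted p = 9.16e-04, edgeR). Both were higher in every iRGC library, whereas Igf2bp3 was interleaved (0.034, adjusted p = 0.900).

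Genes whose profile over the 6 libraries was most like that of each IGF gene were found by the root mean square distance between centred log2 CPM profiles, among 13695 protein-coding genes. For Igf2r these were Tcn2, a vitamin B12 carrier (distance 0.0587), and Fgfr1, a fibroblast growth factor receptor (0.0853). Fgfr1 stood at 78.3, 94.2 and 74.8 CPM in iRGCs and 40.0, 39.9 and 42.8 CPM in cRGCs. For Igfbpl1 the nearest was Epha6, an Eph receptor (0.0865), and then Ankrd35, which was under 2 CPM throughout. For Igf1 they were Tmem63c (0.145) and Snhg11 (0.162).

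Igfbp3 had no near match, and its closest genes were Pear1 (0.490) and Ramp2 (0.514), both known from endothelial cells. Pear1 stood at 0.772, 9.18 and 0.883 CPM in iRGCs and at most 0.483 CPM in cRGCs, so that it too was highest in iRGC replicate 2. For Irs2 the nearest was Atf4, a stress-response transcription factor (0.0990), which stood at 259, 196 and 356 CPM in iRGCs and 238, 180 and 181 CPM in cRGCs. The likeness rests on 6 libraries and says nothing of shared control.

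The remaining nearest pairs were Trip12 and Trmt1l for Igf1r, Slc19a1 and Ctnnd1 for Igfbp2, Npepl1 and Saal1 for Igfbp4, Rassf4 and Fignl2 for Igfbp5, 1810043G02Rik and Slc35d1 for Irs1, and Lysmd3 as the other gene for Irs2. Their distances ran from 0.0413 for Slc19a1 to 0.122 for Lysmd3.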

How the data were processed

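The data were poly(A) RNA-seq libraries from sorted cells, 3 per population, made with a PicoPure extraction and an Illumina HiSeq. The authors deposited raw read counts per Ensembl gene, made from uniquely aligned reads on mm10 (GRCm38), and their processing notes name HISAT2 2.1.0, HTSeq 0.11.1 and DESeq2 1.26.0. The strand setting of the counting is not given in the sources used here, so reads of overlapping genes on opposite strands cannot be told apart. Of 47069 listed identifiers 46574 were matched to a symbol in GENCODE M21 (GRCm38), from which positions and exon lengths come. Chromatin accessibility samples were not analysed here.

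From the deposited counts, genes were filtered with filterByExpr, scaled by TMM and tested with edgeR 4.0.16 (R 4.3.3), quasi-likelihood, population as the only term. P-values were adjusted by Benjamini-Hochberg over all 15941 genes, at 0.1, the study's threshold. The study tested with DESeq2. CPM values are counts over TMM-scaled library sizes, means are given with SD, and SE is that of the log2 fold change. The edgeR p-values weigh the difference between populations against the spread between these libraries. Library totals bound counting error only, and 3 counts were taken as the floor. The scripts were tested on simulated data. DESeq2 1.42.0, limma 3.58.1, other scaling and filters, the replicate number as a block and each library left out were tried.

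The members and lists were chosen with earlier results of these data known. Genes named were the 10, every gene of the lists of ligands, receptors, binding proteins, proteases and IGF2 mRNA-binding proteins, the 3 largest changes in each direction past the threshold in the other roles, and the 2 nearest profiles for each of the 10. Exceptions, named as checks or for overlap, are Slc6a4, Zic2, Pou4f2, Airn, Gm9747, H19, Sun1 and the marker genes, chosen after their values were seen. A gene that the rule names in the Ras and MAP kinase cascade is not reported here.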

Additional observations from a re-analysis of the deposited data

How the results depend on the processing

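Over 139 values of the 10 genes under the alternatives, 120 kept direction and side of the threshold, 4 lost the call (all Irs2), 6 gained it (all Igfbp3) and 9 changed sign (Igf1r, Igfbp2 and Igfbp5, none of them called). Igf1r was 0.017 with upper quartile factors. With each library left out, the log2 fold change ran from -0.17 to 0.085 for Igf1r, from -0.092 to 0.15 for Igfbp2 and from -0.13 to 0.39 for Igfbp5. The log2 difference of the Irs1 to Irs2 ratio ran from -0.46 to 0.069 and that of the Igfbp2 to Igfbp5 ratio from -0.35 to 0.21. For the Igf1r to Insr ratio it ran from 0.19 without iRGC replicate 1 to 0.40 without iRGC replicate 3. With an absolute log2 fold change above 1 required, 1930 genes were higher in iRGCs and 1758 in cRGCs, 0 of the 10 in iRGCs, and 12 and 8 of the pathway list, fewer by construction. The causes of the other changes were not tested.

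Libraries sharing a replicate number did not deviate together (correlations -0.0142, -0.0446 and -0.0669), so no pairing by number was seen. With 3 libraries per population this check cannot exclude a pairing. With the number as a block, 3316 and 3435 genes were called, Irs2 lost its call (0.56, adjusted p = 0.122, edgeR) and Igfbp3 gained it (1.75, adjusted p = 0.0220). Igfbp3 was also called without the filter (adjusted p = 0.0340) and with at least 10 counts in every library (0.0840). Having 3 libraries per population limits what can be read for genes at a few CPM. Igfbp3 held between 31 and 1107 counts per library, and whether depth limits it was not tested.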

Other observations

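H19, the imprinted noncoding RNA beside Igf2 that is expressed from the maternal allele, was examined after the values were seen. It stood at 234, 286 and 147 CPM in iRGCs and 69.2, 92.6 and 58.9 CPM in cRGCs. It was higher in every iRGC library (log2 fold change 1.60, SE 0.252, adjusted p = 0.00120, edgeR), as Igf2 was. The counts carry no information on parental allele.

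Reads counted on Sun1, whose tagged copy is the reporter in both populations, stood at 99.0, 120 and 153 CPM in iRGCs and 391, 271 and 384 CPM in cRGCs. They were higher in every cRGC library (log2 fold change -1.49, SE 0.193, adjusted p = 4.87e-04, edgeR). The counts cannot separate reporter from endogenous transcript.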
